A study of Caenorhabditis elegans with 2 samples.

Results

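The 6 vitellogenin genes of Caenorhabditis elegans, vit-1 to vit-6, were examined for occupancy by a CEH-40 fusion protein. They were chosen by symbol from the 19973 protein-coding genes annotated on the nuclear chromosomes, and all 6 were found. Each gene was taken with its body and 5 kb on either side, and every deposited peak in these windows was read out. The assay was chromatin immunoprecipitation with sequencing (ChIP-seq), with an anti-GFP antibody and sonicated chromatin, on whole young adults aged 76 h. There was 1 group with 2 biological replicates. The worms were of strain OP232, which carries the transgene wgIs232 (ceh-40 joined to TY1, EGFP and FLAG, together with unc-119) in the unc-119(ed3) background, and the culture had been started from L1 larvae starved after bleaching. Chromatin of all tissues was mixed, so signal from the intestine, where yolk is made, cannot be told apart from signal of other cells. No untagged strain, input or mock sample was analysed here, and without read counts in the peak lists the depth behind each value is unknown.

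Vitellogenins are lipid-carrying yolk precursors, made in the intestine of the adult hermaphrodite, secreted into the body cavity and taken up by growing oocytes through the receptor RME-2. Their short promoters carry the vitellogenin promoter elements VPE1 and VPE2, and VPE2 is a site for GATA factors such as the intestinal regulator ELT-2. CEH-40 is a homeodomain protein of the PBC class, which bind DNA together with Hox and MEIS proteins. Another PBC protein, CEH-60, and the MEIS protein UNC-62 are known regulators of vitellogenin transcription, which places the family among the genes at which a PBC protein can be examined.

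The family falls into 3 groups by sequence. On build ce11, vit-1 (WBGene00006925) lies on the plus strand at chrX:7727889-7733168 and vit-2 (WBGene00006926) on the plus strand at chrX:5101042-5106169, and their coding sequences were 93.8% identical. The genes vit-3 (WBGene00006927, chrX:3567355-3572549) and vit-4 (WBGene00006928, chrX:3558769-3563965) are neighbours on the minus strand, and vit-5 (WBGene00006929, chrX:3403471-3408603) lies on the plus strand. The coding sequences of vit-3 and vit-4 were 99.0% identical, and vit-5 was 97.7% and 97.8% identical to them. The sixth gene, vit-6 (WBGene00006930), which encodes the most divergent yolk precursor, is alone on chromosome IV, on the plus strand at chrIV:8261157-8266459, and its coding sequence was 50.7% to 51.5% identical to the others. Coding lengths ran from 4809 to 4953 bases, with 4 or 5 introns between coding exons.

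The 250 bases before each annotated gene start are shown because they hold the known regulatory elements of the family. The bases were read from the RefSeq genome of WBcel235, the assembly of ce11, 5′ to 3′ along each gene, and capitals mark VPE1 (TGTCAAT) and VPE2 (CTGATAA) on either strand.
vit-1: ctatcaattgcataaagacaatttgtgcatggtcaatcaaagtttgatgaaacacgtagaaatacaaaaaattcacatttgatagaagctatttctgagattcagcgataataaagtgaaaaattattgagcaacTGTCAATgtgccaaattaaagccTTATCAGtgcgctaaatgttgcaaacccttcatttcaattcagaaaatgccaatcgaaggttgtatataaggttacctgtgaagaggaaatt
vit-2: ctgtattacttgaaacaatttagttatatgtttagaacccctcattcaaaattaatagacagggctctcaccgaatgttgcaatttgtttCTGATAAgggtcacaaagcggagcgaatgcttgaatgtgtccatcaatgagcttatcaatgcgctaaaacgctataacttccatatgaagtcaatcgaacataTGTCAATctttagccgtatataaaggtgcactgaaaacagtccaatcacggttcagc
vit-3: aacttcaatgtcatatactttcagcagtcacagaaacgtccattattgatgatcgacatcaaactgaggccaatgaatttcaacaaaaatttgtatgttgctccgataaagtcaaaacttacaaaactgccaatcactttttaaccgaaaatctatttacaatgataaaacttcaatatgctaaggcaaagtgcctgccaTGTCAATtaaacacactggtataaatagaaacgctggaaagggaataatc
vit-4: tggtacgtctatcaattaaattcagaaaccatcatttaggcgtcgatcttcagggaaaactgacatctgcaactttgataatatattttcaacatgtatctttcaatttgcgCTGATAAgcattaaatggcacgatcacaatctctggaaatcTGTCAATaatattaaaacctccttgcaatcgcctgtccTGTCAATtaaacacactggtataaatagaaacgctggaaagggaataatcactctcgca
vit-5: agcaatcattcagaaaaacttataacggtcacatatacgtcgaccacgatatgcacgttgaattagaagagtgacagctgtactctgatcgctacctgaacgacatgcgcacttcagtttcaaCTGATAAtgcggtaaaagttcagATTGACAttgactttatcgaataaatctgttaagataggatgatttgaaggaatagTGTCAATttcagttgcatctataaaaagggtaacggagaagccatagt
vit-6: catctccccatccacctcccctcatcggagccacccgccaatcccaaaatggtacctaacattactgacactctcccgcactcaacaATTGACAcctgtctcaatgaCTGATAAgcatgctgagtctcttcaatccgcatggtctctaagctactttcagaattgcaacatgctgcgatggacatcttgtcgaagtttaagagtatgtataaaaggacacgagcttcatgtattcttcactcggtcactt
Searched on both strands, VPE1 occurred in this stretch in 6 of 6 vitellogenin genes, against 4.81% of all 19973 protein-coding genes. VPE2 occurred in 5 of 6, with vit-3 the exception, against 7.20% of all genes. The plain GATA site TGATAA, which every VPE2 contains, occurred in 6 of 6, against 26.8%. The MEIS site TGACAG occurred in vit-1, vit-4 and vit-5, against 7.81% of all genes, and in vit-1 and vit-4 it overlapped a VPE1. The PBC-Hox site TGATNNAT (20.1% of all genes) and the Hox core TAATTA (14.5%) occurred in none of the 6 stretches. The most alike pair of these stretches was vit-3 and vit-4, at 62.1% identity.

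Peaks in the authors' lists are ordered by their irreproducible discovery rate (IDR), which measures how well the ranks of matched peaks hold between a pair of peak sets. The pooled ranked list, made from both replicates, held 103174 nuclear candidate peaks, and the pooled thresholded list kept 840 of them at an IDR of 0.01. The conservative list held 688 nuclear peaks, and the replicates' own thresholded lists held 269 (replicate 1) and 262 (replicate 2). A peak's signal is the value the authors gave it, without a stated unit, and a percentile here is the share of the nuclear peaks of the same list with a lower signal.

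CEH-40 had a thresholded peak at vit-6 and at no other vitellogenin gene. It lay at the 3′ end of the gene body, at chrIV:8266056-8266295, with its summit 5019 bp past the start and 283 bp before the end. Its pooled signal was 77.6, rank 370 by signal in the ranked list (percentile 99.6), with a −log10 IDR of 2.56. By signal it ranked 268 of 840 in the thresholded list and 272 of 688 in the conservative list, so its signal was moderate among those kept. The 121 bases centred on the summit are shown because they carry the family's thresholded peak, with the summit base in capitals (chrIV:8266116-8266236, plus strand).
vit-6 peak: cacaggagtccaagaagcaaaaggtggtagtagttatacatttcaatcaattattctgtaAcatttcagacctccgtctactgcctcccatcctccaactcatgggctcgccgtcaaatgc
The summit lay in the last intron between coding exons, which is 43 bp long, 9 bp before the last coding exon, and 197 of the 240 bp of the peak were coding sequence. None of the 6 sites listed above, VPE1, VPE2, GATA, PBC-Hox, MEIS and Hox core, occurred in these 121 bases. The nearest annotated start of any gene was that of K07H8.5, 2148 bp away, and K07H8.8 ends towards vit-6 from the other strand with a gap of 184 bp.

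Both replicates had a candidate peak at this place. In its own ranked list replicate 1 had a signal of 29.6 (percentile 97.8) and replicate 2 had 36.2 (percentile 98.7). The −log10 IDR was 0.813 and 0.816 in these lists, below the 2 that the threshold needs. Neither replicate's own thresholded list held the peak, nor any other peak in the 6 windows, so the call was made only in lists built from both replicates.

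A single gene out of 6 is near the background. Of all protein-coding genes, 10.7% (2131) had a thresholded summit in the body or within 5 kb on either side, and of the windows that tile the nuclear chromosomes at the median window length of 15196 bp, 10.4% (688 of 6596) had one. A thresholded summit inside the gene body was rarer, at 1.86% of protein-coding genes, against 1 of 6 vitellogenin genes, a count from which no rate can be read. In the 1 kb before the start, 1.58% of protein-coding genes had one, against 0 of 6 vitellogenin genes, a share that 6 genes cannot set apart from that background. Outside vit-6, the nearest thresholded summit was 15.4 kb from vit-2, 17.7 kb from vit-4, 26.3 kb from vit-3, 32.0 kb from vit-5 and 61.5 kb from vit-1. The start nearest to these summits was that of a tRNA gene for vit-1 and vit-2, of rgs-7 for vit-3 and vit-4, which share 1 summit, and of ZK563.8, a noncoding RNA gene, for vit-5. In replicate 2's own thresholded list the summit nearest to vit-5, also 32.0 kb away, was nearest to the start of a tRNA gene.

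**Figure D1:**
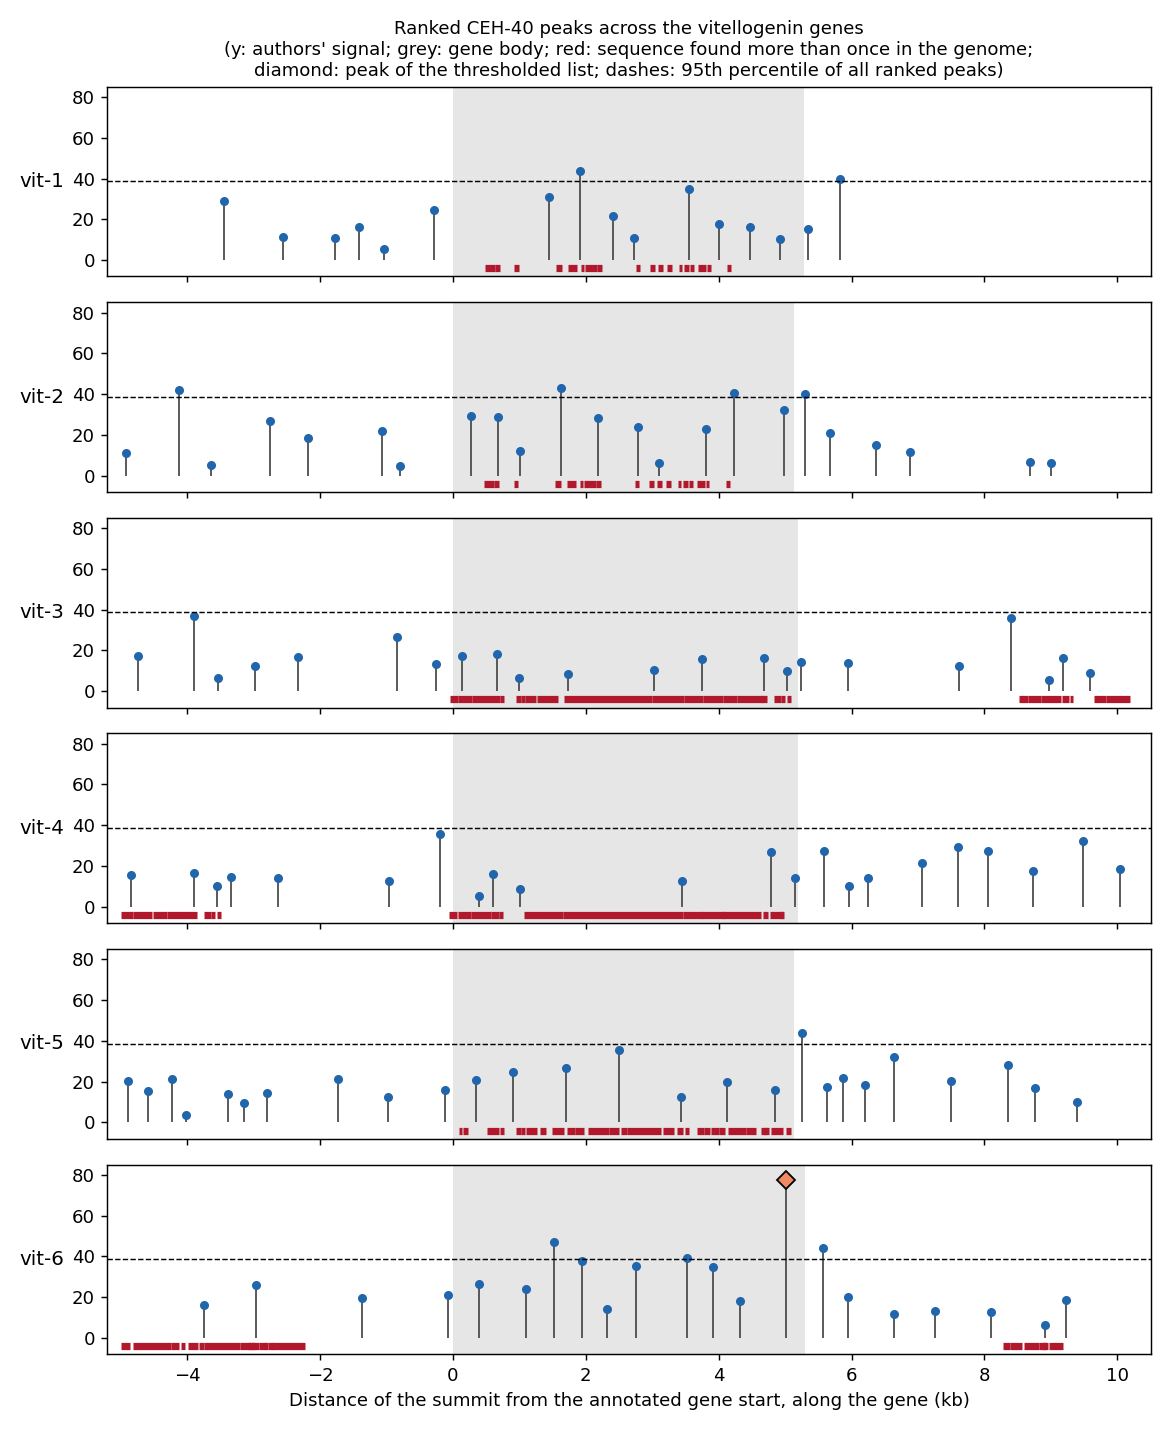
Authors' signal (y axis) of every ranked peak against the distance of its summit from the annotated gene start in kb (x axis), with 1 panel per vitellogenin gene. Grey marks the gene body, red bars mark sequence found more than once in the genome, dashes mark the 95th percentile of all ranked peaks (38.6) and the diamond is the thresholded vit-6 peak at 77.6. Peaks at vit-1, vit-2 and vit-6 pass the dashes inside the gene body, and those at vit-3, vit-4 and vit-5 do not.

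Candidate peaks were common across all 6 windows. There were 16 at vit-1, 23 at vit-2, 22 at vit-3, 22 at vit-4, 26 at vit-5 and 21 at vit-6, where tiles of the same length had a median of 17 or 18. The vit-1 window was below that median and the other 5 above it. Fewer peaks were held by 36.7% of tiles for vit-1, 73.4% for vit-6, 81.7% for vit-4, 81.8% for vit-3, 87.8% for vit-2 and 96.7% for vit-5. The windows of vit-3 and vit-4 overlap and share 10 peaks, so the windows held 120 distinct peaks in 84.625 kb, or 14.18 per 10 kb, against 10.3 over the nuclear chromosomes, 11.1 on X and 8.84 on IV. Of all the tiles, 358 (5.43%) held no ranked peak.

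These peaks were of ordinary strength. Their median signal was 18.1, against 18.8 in the whole ranked list, and 55 of 120 (45.8%) were above the list's median. At the lowest deposited −log10 IDR were 40.8%, against 43.9% of all nuclear ranked peaks. In the upper tail, 11 of 120 (9.17%) were above the 95th percentile of the list, and vit-2 and vit-6 had 4 each, vit-1 and vit-5 had 2 and 1, and vit-3 and vit-4 had none.

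**Figure D2:**
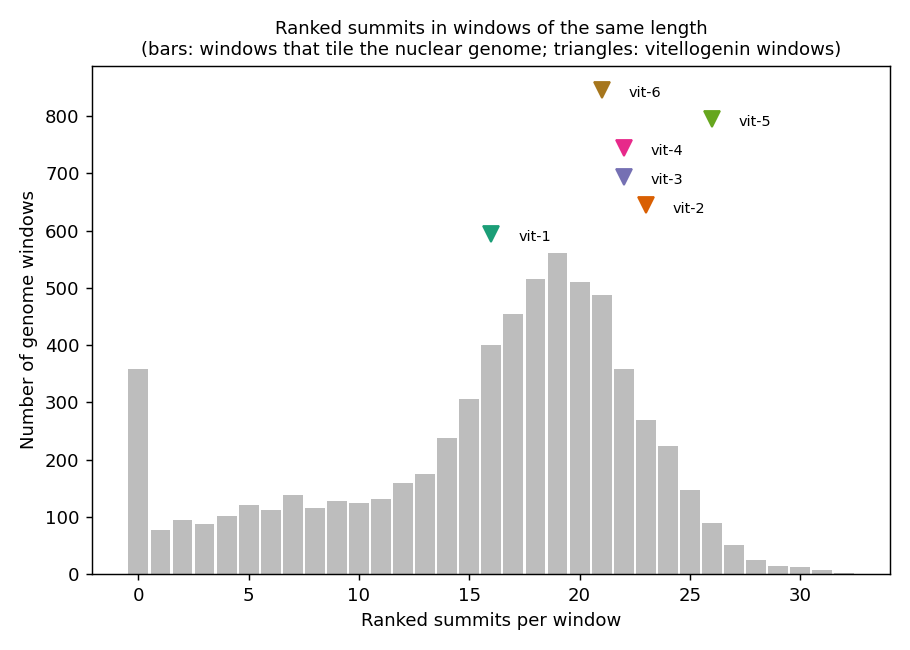
Number of genome windows (y axis) with each number of ranked summits (x axis), for 6596 windows of the median length that tile the nuclear chromosomes (bars). Triangles mark the 6 vitellogenin windows, whose height has no meaning, and they run from 16 at vit-1 to 26 at vit-5.

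The strongest candidate peak lay in the gene body at vit-1, vit-2 and vit-6, and outside it at the others. At vit-1 it had a signal of 43.8 (percentile 97.4), in coding sequence 1913 bp past the start (chrX:7729682-7729921), with 23.1 in both replicates' own lists. At vit-2 it was 43.1 (percentile 97.1), also coding, 1633 bp past the start (chrX:5102555-5102794), with 26.4 in replicate 1 and 19.7 in replicate 2. At vit-6 it was the thresholded peak. In the vit-4 window the strongest was the promoter peak of vit-4 itself, at 35.9. For vit-3 it was 37.0 at −3899 bp from the start, 158 bp from the start of the neighbouring gene ckc-1. For vit-5 it was 43.9, past the gene's end in the neighbouring gene unc-78. Of tiles of the same length, 95.4% had a lower maximum than vit-6, 69.3% to 71.5% a lower one than vit-1, vit-2 and vit-5, and 41.6% and 46.4% a lower one than vit-4 and vit-3.

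Promoter signal varied from among the weakest candidates to the upper tail. In the 1 kb before the start, vit-4 had the strongest peak, 35.9 with its summit at −188 bp (percentile 92.8 of peaks, and above 91.0% of protein-coding genes by their strongest promoter peak). It was followed by vit-3 with 26.6 at −841 bp, vit-1 with 24.7 at −282 bp, vit-6 with 20.9 at −77 bp, vit-5 with 15.6 at −118 bp and vit-2 with 4.95 at −798 bp. The −log10 IDR of these peaks ran from 0.0929 at vit-2, the lowest deposited, to 0.673 at vit-4, all below the 2 that the threshold needs. Several of these lie close to another gene: the vit-3 summit is inside T27A10.5, 192 bp from its start, the vit-6 summit is inside K07H8.16, a noncoding RNA gene, 70 bp from its start, and the vit-2 summit is 73 bp from the start of C42D8.16, another noncoding RNA gene. The median over all protein-coding genes was 17.1, with 29.6% of genes without a ranked promoter peak, and 4 of 6 vitellogenin genes were above that median. Below vit-4 this order depended on the span taken as promoter: within 500 bp on either side of the start, vit-2 had 29.1, vit-6 26.6, vit-1 24.7, vit-5 20.6 and vit-3 17.1, and vit-4 was still highest at 35.9. In that span the values of vit-2, vit-6, vit-5 and vit-3 come from peaks in coding sequence past the start.

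In the replicates' own lists, vit-4 was the gene whose strongest promoter peak was found in both, with 13.5 in replicate 1 and 26.9 in replicate 2. That was near the middle of the first list and near the top of the second (percentiles 50.2 and 95.3). The vit-1 peak was overlapped by a peak of 9.60 in replicate 1 and by none in replicate 2. The vit-3 and vit-5 peaks had 19.4 and 13.97 in replicate 2 and none in replicate 1, and the vit-2 and vit-6 peaks had none in either. The list matched between the replicates, which holds more peaks than either replicate's own, gives a signal in both matched sets for 5 of the 6, with vit-5 the exception. The first and second set had 7.04 and 16.1 at vit-1, 8.39 and 9.21 at vit-2, 7.87 and 19.4 at vit-3, and 16.04 and 9.08 at vit-6. The second set was higher at vit-1 to vit-4 and the first at vit-6, but some of these values are shared with a neighbouring summit. The 16.1 at vit-1 is also given to the summit at chrX:7727285, whose first-set value is the 9.60 seen in replicate 1. The 9.21 at vit-2 is also given to a summit at −1062 bp.

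Of the VPE1 and VPE2 sites printed in capitals above, 8 are VPE1 and 5 are VPE2, and 7 of the 13 (53.8%) lie inside a ranked peak. Ranked peaks covered 55% of all bases in these 6 stretches, so the sites were covered about as often as the sequence around them. Before all protein-coding genes, 27.2% of 2559 VPE1 and VPE2 sites lay inside a ranked peak, and 26.1% of all bases did. At vit-4 the peak spans −307 to −68 bp and covers VPE2 at −138 and VPE1 at −97, but not the second VPE1 at −59. At vit-5 the peak of 15.6 covers VPE1 at −104 and −48 and VPE2 at −127, and at vit-6 the peak of 20.9 covers VPE1 at −163 and VPE2 at −143. At vit-1, vit-2 and vit-3 no ranked peak covered a VPE1 or VPE2 site. None of the 13 lay in a thresholded peak.

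**Figure D3:**
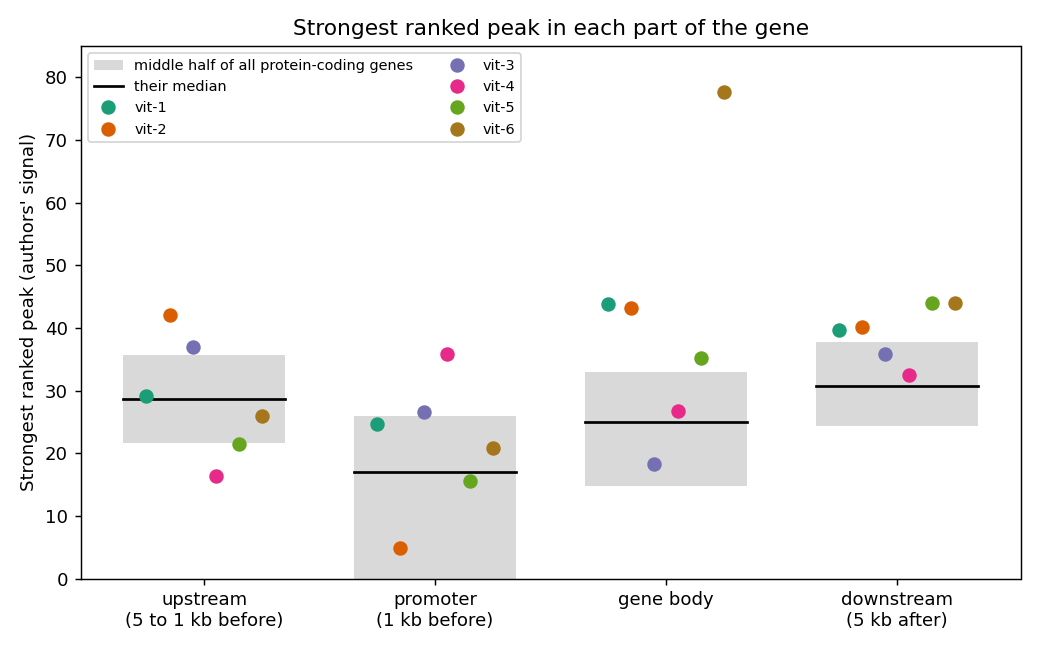
Strongest ranked peak (authors' signal, y axis) upstream, in the promoter, in the gene body and downstream (x axis) for each vitellogenin gene (coloured points). Grey boxes span the quartiles of all 19973 protein-coding genes and black lines their medians, with genes without a ranked peak at 0. In the promoter vit-4 stands highest at 35.9, and in the gene body vit-6 at 77.6.

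Within the gene bodies, vit-6, vit-1 and vit-2 carried the strongest candidates and vit-3 and vit-4 the weakest. The strongest body peak was 77.6 at vit-6, 43.8 at vit-1, 43.1 at vit-2, 35.3 at vit-5, 26.7 at vit-4 and 18.2 at vit-3, and the median over all protein-coding genes was 25.03 (upper quartile 32.9). Since longer genes hold more peaks, tiles of each gene's own length are the closer measure: 98.3% had a lower maximum than vit-6, 88.3% than vit-1, 87.6% than vit-2, 70.1% than vit-5, 36.4% than vit-4 and 17.4% than vit-3. The high values at vit-6 did not rest on the thresholded peak alone, since the median of its 10 body peaks was 35.01 and a second, coding, peak 1523 bp past the start reached 46.9. The median body signal was 28.4 at vit-2, 20.6 at vit-5, 19.8 at vit-1, 13.5 at vit-4 and 12.9 at vit-3.

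Peak density in the bodies was 1.57 per kb for the 6 genes joined, against 1.09 over all protein-coding genes. In the promoter it was 1.5 against 1.061, and both upstream and downstream it was 1.33, against 1.07 and 1.10. Of the 120 distinct peaks 44 had their summit in coding sequence, 4 in introns, 1 in a UTR, 9 in a promoter, 27 farther upstream and 35 downstream. Downstream of the genes the strongest peak was above the all-gene median of 30.8 in 6 of 6 genes, at 32.5 to 43.9, but each of these peaks was at a neighbouring gene. Those of vit-1, vit-2, vit-4, vit-5 and vit-6 lay over set-12, C42D8.9, rgs-7, unc-78 and K07H8.8, and that of vit-3 was the promoter peak of vit-4.

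The order of the bodies by their strongest peak was nearly that of how little of each is repeated in the genome. The share of 50-base words in the gene body that occur more than once in the genome was 0% at vit-6, 12.8% at vit-1, 13.1% at vit-2, 49.1% at vit-5, 74.1% at vit-3 and 78.6% at vit-4, against 6.49% of the genome. Only vit-3 and vit-4 change places between this order and that of the strongest body peak. By the median body signal the match was looser, since vit-1 (19.8) was also below vit-2 (28.4) and vit-5 (20.6). Copies lie in the other family members: vit-1 and vit-2 share 667 words, which are all the repeated words of either, vit-3 and vit-4 share 71.06% and 71.04% of theirs, and vit-5 shares 41.4% of its words with vit-3 and 46.1% with vit-4. At vit-6 the repeated words lay outside the gene and made up 52.7% of those farther than 1 kb upstream, where 3 ranked peaks were listed. How reads from such sequence were placed is not given in the sources used here, so in the repeated stretches signal of one gene cannot be told apart from signal of its copy.

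Candidate peaks were also listed inside repeated sequence. Of the 49 body summits, 10 sat at the centre of a repeated 50-base word (2 at vit-2, 4 at vit-3, 2 at vit-4 and 2 at vit-5), with a median signal of 15.98 and a maximum of 28.1. The other 39 had a median of 23.9 and a maximum of 77.6. Of these, 8 were at vit-1 and 10 at vit-6, which had no summit in repeated words. The 2 medians therefore compare partly different genes. Over all nuclear ranked summits 2.66% sat in repeated words, with a median signal of 17.8, against 18.8 for the rest. The promoters held almost no repeated words (0% in 4 genes, 0.105% at vit-3 and 1.05% at vit-4). The part of repeated sequence in the body values was not tested.

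**Figure D4:**
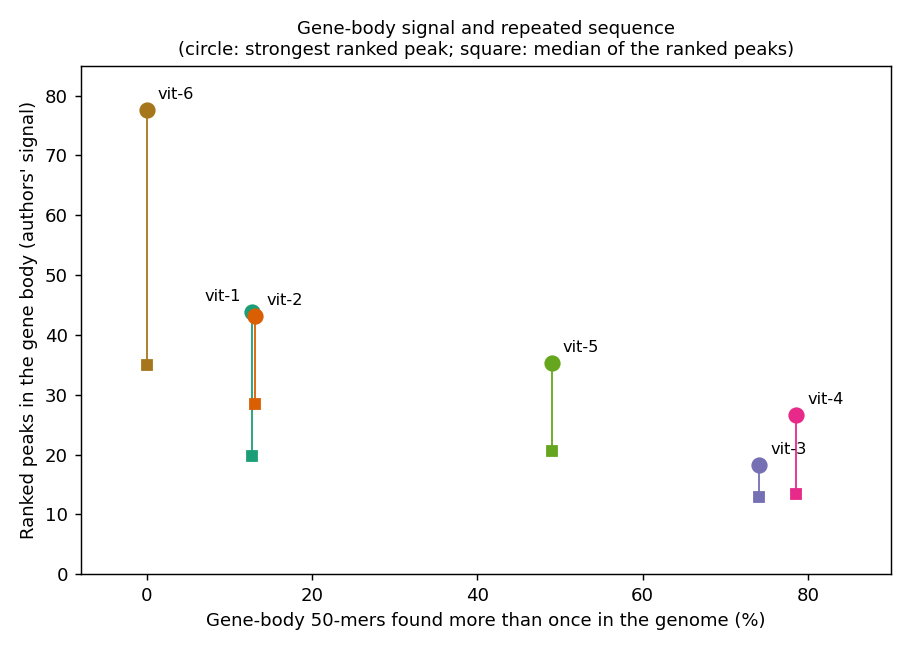
Signal of the ranked peaks in each gene body (authors' signal, y axis) against the share of the body's 50-base words found more than once in the genome in % (x axis). Circles are the strongest body peak and squares the median of the body's peaks, and a line joins those of 1 gene. vit-6 stands at 0% with 77.6, and vit-3 and vit-4 at 74.1% and 78.6% with 18.2 and 26.7.

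Both replicates placed vit-6 first and vit-2 next by the strongest peak in the window. The strongest peak of each window was 23.1, 30.9, 14.7, 22.8, 24.9 and 35.03 for vit-1 to vit-6 in replicate 1, and 27.2, 31.6, 26.9, 26.9, 27.5 and 36.2 in replicate 2. The order of the others was also kept, with vit-5 ahead of vit-1 and vit-4, except that vit-3, lowest in replicate 1, tied with vit-4 in replicate 2, where the windows share their strongest peak. Replicate 2 was higher in 6 of 6 windows, but its whole list is also higher, with a median of 14.8 against 13.5. In every window the strongest peak was a different one in each replicate, so the shared order is not that of shared sites. At vit-2 it was 4976 bp past the start in replicate 1, where replicate 2 had 8.67. In replicate 2 it was 2789 bp past the start, where replicate 1 had no overlapping peak. In replicate 1 the strongest vit-6 peak was not the thresholded one but a coding peak 1936 bp past the start, which had no overlapping peak in the list of replicate 2.

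The ranked list of peaks matched between the replicates gives a signal for each of the 2 matched sets, and held 97 distinct peaks in the windows. Some neighbouring peaks carry the same value in 1 or both sets, so the 97 are not all separate measurements. The second set was higher at 59 of 97 (60.8%), against 64.7% of all nuclear matched peaks. The ratio of second to first ran from 0.281 to 4.77 with a median of 1.16. Inside the gene bodies the second set was higher at 20 of 41 peaks and outside them at 39 of 56. These columns name no sample: 44 of the 97 first-set values recurred with the same position and signal in replicate 1's own list and 0 in replicate 2's, and 56 second-set values recurred in replicate 2's own list and 0 in replicate 1's.

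**Figure D5:**
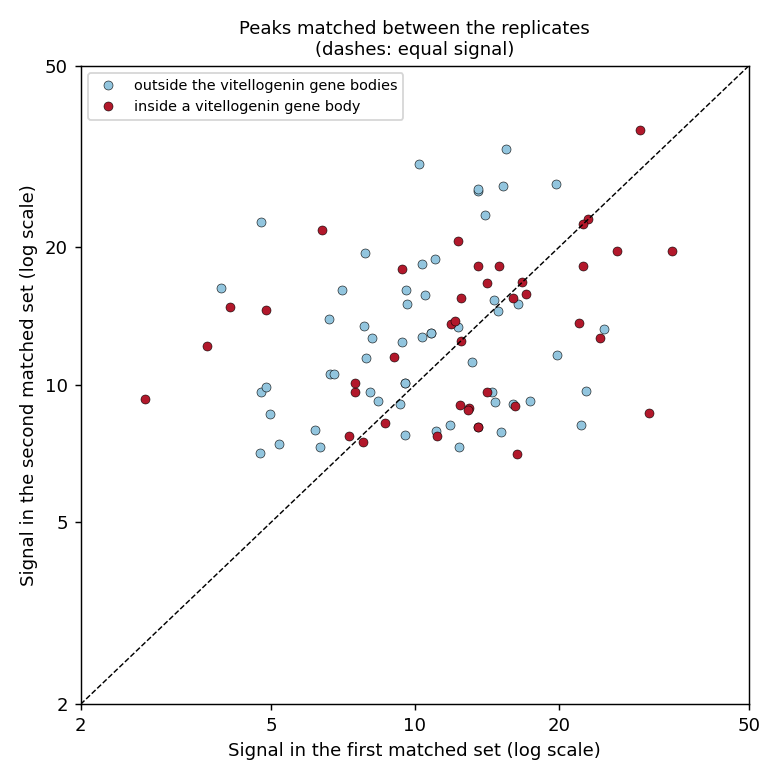
Signal of each of the 97 matched peaks in the second matched set (y axis, log scale) against the first (x axis, log scale), in the authors' signal. Red points lie in a vitellogenin gene body, blue points elsewhere in the windows, and dashes mark equal signal. The points scatter widely around the line, with 59 above it.

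Genes that handle or regulate yolk were read out by the same rules. Their bodies ran from 2202 bp at elt-2 to 26206 bp at daf-16, and the shares below were not matched for length. Of 18 listed genes, all found, 2 (11.1%) had a thresholded summit in the body or within 5 kb, near the 10.7% of all protein-coding genes, and 0 had one in the promoter. One was dsc-4, which encodes the microsomal transfer protein that loads lipid onto vitellogenin: a peak of 104.6 lay at −2116 bp from its start and 37 bp from that of K02D7.8, a noncoding RNA gene. The other was lin-29, a zinc finger regulator of the passage to adulthood, with a peak of 84.5 at the 3′ end, 17642 bp past its start, in the UTR and 1188 bp from the start of hmg-12. By the strongest promoter peak, 13 of 18 genes were above the all-gene median of 17.1, and the median of the list was 22.5. The strongest was at skn-1, a stress and lipid regulator, with 55.5, above 98.4% of protein-coding genes, followed by rict-1, the Rictor subunit of a TOR complex, with 36.4. The PBC gene ceh-60 had 31.2 and the MEIS gene unc-62 had 27.3, and rme-6, which acts in endocytosis, had 5.82. The insulin pathway factor daf-16 had no ranked promoter peak, but its window held 47 ranked peaks, the strongest an intronic one of 50.7. elt-2 had no ranked peak in its body or within 5 kb on either side, as was listed for 764 (3.83%) of protein-coding genes.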

How the data were processed

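The authors deposited peak lists on ce11 with a signal per peak, a −log10 IDR and, in the matched list, a score column for each matched set. No aligner or peak caller is named in the sources used here. Depth is unknown, so no intervals were computed. Gene models came from Ensembl release 115 (WBcel235).

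Python 3.11.15 with numpy 2.4.6 and pandas 2.3.3 placed summits in each gene, its 1 kb promoter and 5 kb on either side. Counts stand beside all protein-coding genes and non-overlapping tiles of equal length. With 1 group no test between conditions exists and no p was computed. Coding sequences were aligned with MAFFT 7.526. Repeated 50-base words occur more than once on either strand. The computations were tested on simulated data. Members, lists and sites were chosen with earlier results of these data known. Named genes are all members, neighbours nearest to their named peaks, and yolk genes with a thresholded peak or the strongest or weakest promoter peak; rict-1, ceh-60 and unc-62 were added after their values were seen. Alternatives were other flanks, promoter spans, lists, word lengths and each replicate alone.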

Additional observations from a re-analysis of the deposited data

How the results depend on the processing

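The single thresholded peak was also found with 2 kb flanks, with any overlap of 1 bp and in the conservative list. With 10 kb flanks there were 2, the second with a signal of 126.2, 32 bp from the start of H09I01.2, a snoRNA gene. In the thresholded list of either replicate alone there were 0 to 0. Ranked peaks per 10 kb moved from 14.18 to 15.56 with 2 kb flanks, 13.44 with 10 kb flanks, 6.499 among peaks above the list's median signal (5.14 over the nuclear chromosomes), 11.46 in the matched list (7.77) and 7.09 to 7.445 with 1 replicate left out (4.40 and 5.12), each above its nuclear value. The highest percentile moved from 99.64 to 99.9 with 10 kb flanks, by the H09I01.2 peak, and to 98.68 to 98.86 with 1 replicate left out. The second matched set was higher at 60.8% of matched peaks. By another measure, the strongest peak of each window in the replicates' own lists, replicate 2 was higher in 100% of windows. Repeated words made up 18.14% of the windows, 20.47% with 36-base words and 12.54% with 100-base words. The promoter percentile of vit-2 depended most on the span, at 3.92, 82.91 within 500 bp on either side of the start, by a coding peak, and 62.93 with 2 kb. The 500 bp span also took vit-3 from 76.89 to 42.8, vit-5 from 36.55 to 56.94 and vit-6 from 58.16 to 76.95, each by a coding peak as well. Without replicate 2, vit-1 went from 71.53 to 19.65 and vit-4 from 92.82 to 50.16. The vit-1 value is that of an overlapping peak, which the matched list gives to a neighbouring summit. No paired analysis was possible because there is 1 group. Unknown depth limits every value, and no peak in a list does not show a lack of binding.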
